A study of Ovis aries with 5 samples.

Results

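H3K27me3 marks chromatin held by Polycomb, and 12528 short stretches of it on the sheep autosomes lay outside the regions of active chromatin in fetal perirenal fat. They were chosen by their position and length in the authors' joint lists: rows of the joint H3K27me3 list on chromosomes 1 to 26, under 8000 bp from start to end, that share no base with a region of the joint H3K4me3 or H3K27ac list. They make up 81.2% of the 15430 autosomal regions of the joint H3K27me3 list, which holds 31942 regions in all. The tissue is the fat around the kidney of wild type, untreated merino fetuses at 132 days of gestation, from ewes on a maintenance diet. H3K4me3 and H3K27ac were each measured by ChIP-Seq, which sequences the DNA that an antibody to a histone mark pulls down, in 2 libraries called replicate 1 and replicate 2. The labels give the same fetus for replicate 1 of both marks and another for replicate 2, so each replicate number stands for 1 animal. H3K27me3 was measured in 2 animals according to the methods, and its peak lists, called list 1 and list 2 here, were not tied to a sample record. All lists were called against 1 input library made from the pooled chromatin of the fetuses, so the control carries no information on single animals, and whole tissue does not separate adipocytes from the other cells of the depot.

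Polycomb repressive complex 2 trimethylates lysine 27 of histone H3, and the mark accompanies genes kept silent, among them many regulators of development. H3K4me3 sits at promoters, and H3K27ac, which cannot occupy the same lysine as H3K27me3 on 1 histone tail, sits at active promoters and enhancers. Regions that carry both H3K27me3 and H3K4me3 are called bivalent. No gene was assigned to a region, and the tissue was not checked against its marker genes, because gene positions on Oar_v3.1, the build of the lists, were not used here.

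The 2 H3K27me3 lists rested on 27.7 and 27.6 M tags after removal of duplicates, against 26.7 M for the input. The 4 active-mark libraries were deeper, between 92.9 and 145.7 M tags. Each list had 1 library behind it, so the values of list 1 and list 2 are given side by side, without an SD or a test. Shares are given with 95% Wilson intervals, which hold counting error alone and say nothing of how far animals differ.

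The short regions were mostly between 1000 and 4000 bp long. Their median length was 2236 bp, the 25th and 75th percentiles were 1541 and 3303 bp, and the full range was 495 to 7973 bp. Of the 12528 regions, 611 (4.88%) were under 1000 bp, 4686 (37.4%) were from 1000 to under 2000 bp and 5236 (41.8%) were from 2000 to under 4000 bp. Another 1549 (12.4%) reached 4000 to under 6000 bp, and 446 (3.56%) lay between 6000 bp and the limit. The lengths formed 1 continuous distribution through the limit, which therefore cuts a tail and does not separate a class. Together the regions covered 32.7 Mb, which was 1.34% of the autosomes and 67.8% of all autosomal H3K27me3 bases. On the other side of the limit were 377 regions without a joint active mark, with a median length of 9882 bp and 4.25 Mb in all.

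The regions just inside and just outside the limit had similar values. The longest member, on chromosome 26 from 23409804 to 23417777, measured 7973 bp and held 485 tags in list 1 and 586 in list 2. The next ones, on chromosome 10 (7963 bp) and chromosome 4 (7960 bp), held 346 and 338 tags in list 1 and 422 and 313 in list 2. Their highest fold enrichments over the input were between 8.33 and 12.8 in list 1 and between 9.09 and 16.5 in list 2. The shortest regions over the limit without a joint active mark, of 8011, 8013 and 8022 bp on chromosomes 18, 14 and 11, held 493, 161 and 485 tags in list 1 and 469, 351 and 411 in list 2. These ranges of tags overlap in both lists.

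**Figure D1:**
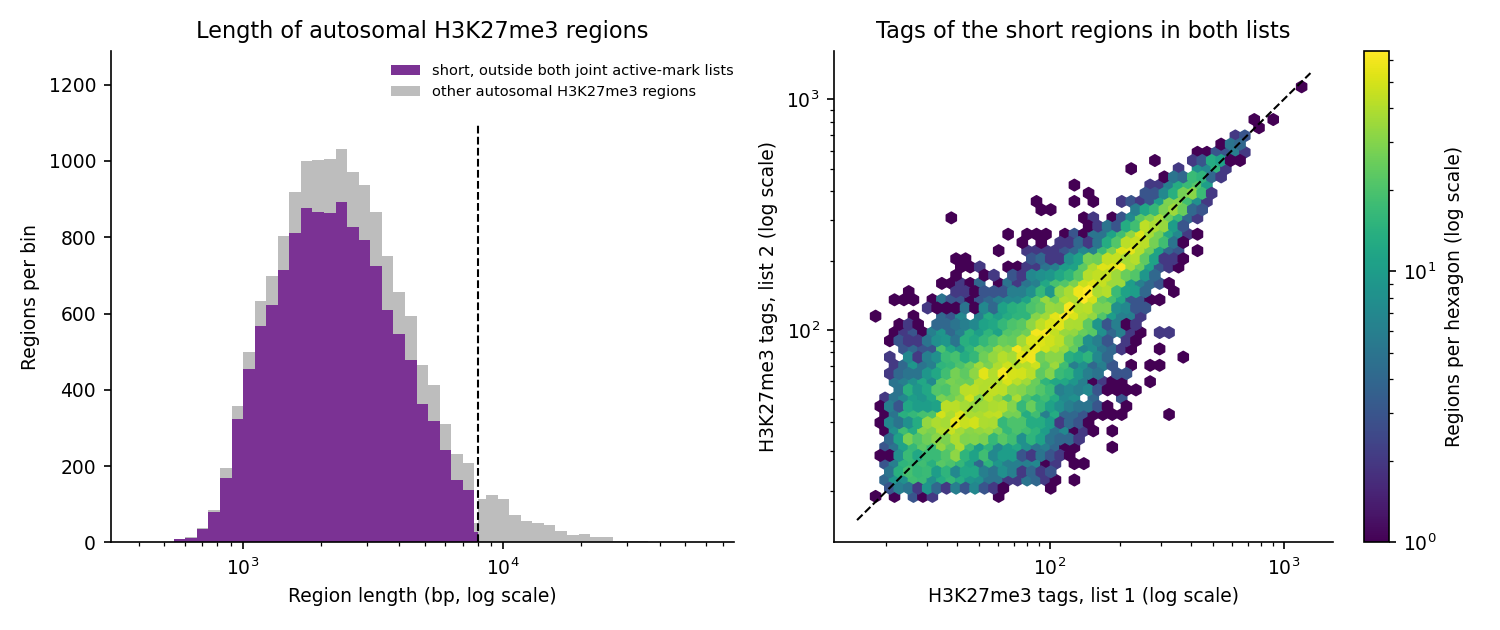
Left, number of autosomal H3K27me3 regions per length bin (bp, log scale), with the 12528 short regions outside both joint active-mark lists in purple, the other autosomal regions in grey and the limit of 8000 bp dashed. Right, tags of each short region in list 1 against list 2 (log scales, colour gives the number of regions), where most regions lie near the dashed line of equality and the scatter widens below about 100 tags.

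All 12528 regions had a peak in both H3K27me3 lists, which the joint list requires. Tags per region were 83 in the median in list 1 and 80 in list 2, with a range of 18 to 1192 and 19 to 1134. Per kilobase of region, the medians were 39.2 and 38.3 tags, where the mean over the autosomes and X was 10.7 tags per kb in both lists. The regions took up 5.15% of the tags of list 1 and 5.11% of those of list 2. Tags were summed over every peak of a list that touched the region, so bases of a region that only the other list called add length and no tags.

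The highest fold enrichment in a region had a median of 7.08 in list 1 and 6.92 in list 2, with a range of 2.75 to 23.2 and 2.86 to 27.2. The lowest FDR in a region, in the authors' values, had a median of 0.43% in list 1 and 0.71% in list 2. No peak of either list exceeded 2.63% or 3.33%, so the 5% named for the joint list removed no peak. Most regions were simple: 10337 (82.5%) were covered by 1 peak in each list, and no region by more than 5 in a list.

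The order of the regions was shared by both lists. Across the 12528 regions, log2 tags correlated with a Pearson r of 0.845 and a Spearman rho of 0.824, and fold enrichments with r = 0.757. These are correlations over regions of 1 list against the other, which share region length and the input library, and regions are not independent replicates. With length divided out, log2 tags per kb correlated with r = 0.415. The median difference of log2 tags, list 1 minus list 2, was 0.01, and 5% of the regions lay below -0.97 and 5% above 1.03. Counting error alone gives a median standard error of 0.23 for this difference, and 7972 regions (63.6%) differed by less than the 95% limit of their own counting error. Tags agreed within 1.5 times in 9325 regions (74.4%) and were over 2 times apart in 1229 (9.81%).

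Longer regions were denser. Regions under 1000 bp had medians of 33.4 and 33.5 tags per kb in lists 1 and 2, those from 2000 to under 4000 bp had 40.9 and 40.02, and those from 6000 bp to the limit had 54.0 and 53.8. Median fold enrichment was 6.80 in both lists in the shortest class and 10.0 and 10.1 in the longest. The same direction held outside the short regions, since the 377 longer ones without joint active marks had 62.3 and 63.4 tags per kb and median fold enrichments of 12.3 and 12.1. Region length itself comes from merged peaks, and a stronger region can be called over more bases, so length and tags are not separate measures.

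5 regions had the highest enrichment when the lower of both lists was taken. The first lay on chromosome 23 from 1028757 to 1033126, with 437 tags and 22.3-fold enrichment in list 1 and 466 tags and 27.2-fold in list 2. The second, on chromosome 15 from 50056701 to 50060597, held 283 and 276 tags at 22.7-fold and 21.3-fold. The third was a region of 2427 bp on chromosome 3 from 19894311 to 19896738, with 163 and 169 tags at 21.4-fold and 21.1-fold. By this choice the regions are high in both lists, here at more than 20-fold, where the upper 5% of the members began at 13.2-fold in each list. The fourth, on chromosome 22 from 21105768 to 21113613, was 7845 bp long and held 873 and 846 tags at 21-fold and 21.3-fold. The fifth, on chromosome 14 from 60739859 to 60742246, held 181 and 152 tags at 21-fold and 21.9-fold. All 5 were touched by an H3K4me3 peak of replicate 1, and 3 of them also by one of replicate 2, outside the joint H3K4me3 list. None was touched by an H3K27ac peak of either replicate. Their distances to the nearest joint H3K4me3 region ran from 932 bp on chromosome 22 to 73242 bp on chromosome 3.

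Most short peaks were seen in both H3K27me3 lists, and those seen in 1 list were weaker. Of the 22410 autosomal peaks of list 1 that met the same length and active-mark limits, 14846 (66.2%, 95% interval 65.6 to 66.9%) overlapped a peak of list 2. In list 2 it was 14407 of 20357 (70.8%, 70.1 to 71.4%). The shared peaks had medians of 73 tags in list 1 and 72 in list 2, and the unshared ones of 38 and 36. Median lengths were 1684 and 1678 bp for shared and 1028 and 998 bp for unshared peaks. The shared peaks, which the joint list requires, were therefore the stronger ones in the median. Not every shared peak lies in a member, since merging can lengthen a region or bring in an active mark. The share found in both lists over all autosomal peaks was not computed.

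The short regions lay close to other H3K27me3 regions, much as all autosomal H3K27me3 regions did. The median gap, from edge to edge, to the nearest other autosomal region of the joint H3K27me3 list was 1732 bp, with 25th and 75th percentiles of 373 and 13242 bp. Within 1 kb of another region lay 5204 members (41.5%, 40.7 to 42.4%), within 5 kb 7963 (63.6%, 62.7 to 64.4%) and within 10 kb 9031 (72.1%, 71.3 to 72.9%). In 10858 members (86.7%) the nearest H3K27me3 region was itself a member, and members are 81.2% of all autosomal H3K27me3 regions. At the other end, 951 members (7.59%) had no other H3K27me3 region within 100 kb. Over all 15430 autosomal H3K27me3 regions the median gap was 1482 bp and 72.4% had another within 10 kb. This spacing was therefore not particular to the members. The short regions with a joint H3K4me3 region in them, 1946 in number, had a median gap of 908 bp and 70.3% within 10 kb. The 265 short regions with joint H3K27ac only had 4538 bp and 60.4%, and the 377 long regions without joint active marks had 539 bp and 90.2%.

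Members close to a neighbour had more tags. Those within 1 kb of another H3K27me3 region had a median of 102 tags in list 1 and 101 in list 2 over a median of 2455 bp, with 7.77-fold and 7.63-fold enrichment. Those from 10 to 100 kb away had 66 and 64 tags over 2006 bp, with 6.47-fold and 6.54-fold enrichment. The 951 isolated members had 67 and 66 tags over 1922 bp, with 6.80-fold enrichment in both lists.

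Because a domain can be called in pieces, the regions were also joined across gaps. Joining all autosomal H3K27me3 regions no more than 1 kb apart left 7324 members (58.5%) alone and put 2083 members (16.6%) into blocks spanning 8 kb or more, of which 1302 members lay in 480 blocks made of members only. At 5 kb, 5195 members (41.5%) fell into such blocks, and at 10 kb 6910 (55.2%). The share of members that fell into such blocks thus depended on the distance chosen. Whether such a block is 1 domain called in pieces was not tested.

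Some members formed long runs with no other region of the joint lists in between. Members no more than 10 kb apart were joined, and any other region of the joint H3K27me3, H3K4me3 or H3K27ac list ended a run. Peaks outside these lists did not end a run. There were 2789 runs of 2 or more members, 339 of 5 or more and 32 of 10 or more. The longest lay on chromosome 2 from 50263804 to 50391391, where 21 members over 127.6 kb covered 49.0% of the span. Its members held 28 to 633 tags in list 1 and 27 to 595 in list 2, and the strongest, 7766 bp long, reached 13.4-fold and 13.8-fold enrichment. The nearest joint active-mark region to any of the 21 was 24388 bp away.

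The second run, on chromosome 13 from 74506772 to 74620897, held 19 members over 114.1 kb and covered 57.2% of it, with fold enrichments up to 16.7 and 14.6. Peaks of H3K4me3 outside the joint list touched 5 of the 19 in replicate 1 and 2 in replicate 2. The third run, on chromosome 3 from 132535310 to 132619514, held 11 members over 84.2 kb, all between 3.81-fold and 9.37-fold. No H3K4me3 peak of either replicate touched these 11, and no H3K27ac peak touched a member of any of the 3 runs.

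**Figure D2:**
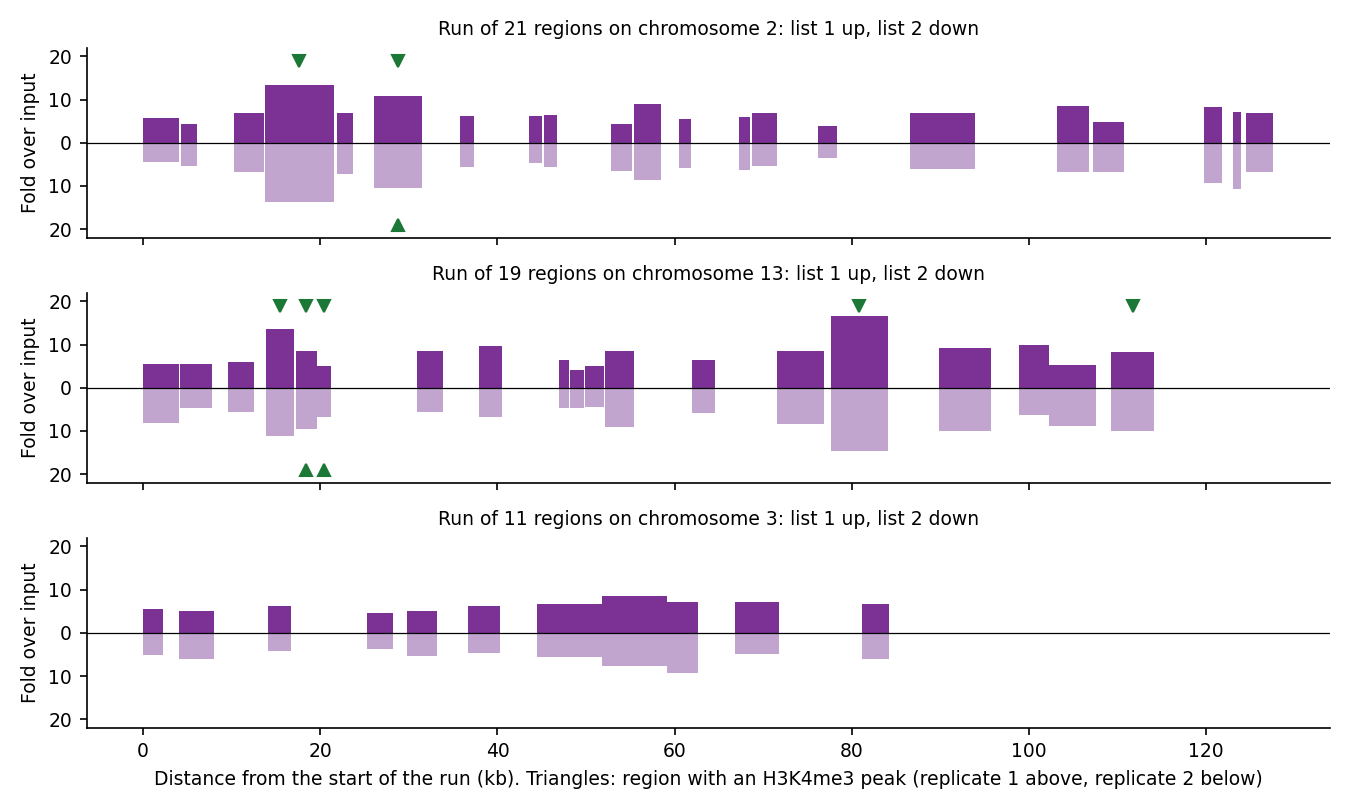
The 3 longest runs of short H3K27me3 regions, drawn to scale in kb from the start of each run, with the highest fold enrichment over input of each region in list 1 (up) and list 2 (down). Green triangles mark regions touched by an H3K4me3 peak of replicate 1 (above) or replicate 2 (below). The tallest bars, at 13.4-fold and 13.8-fold on chromosome 2 and 16.7-fold and 14.6-fold on chromosome 13, stand over wide regions, and the run on chromosome 3 stays below 10-fold and bears no triangle.

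Regions of the joint active-mark lists were farther away than other H3K27me3 regions. The rule excludes overlap with the joint active-mark lists but not nearness to them. Leaving out the overlapping regions raises the members' distances to these lists by construction. The median distance to the nearest region of either list was 35626 bp, with 25th and 75th percentiles of 10748 and 90108 bp. It was 53244 bp to the nearest joint H3K4me3 region and 61262 bp to the nearest joint H3K27ac region, although the autosomes held 15350 of the first and 34899 of the second. Within 1 kb of an active-mark region lay 625 members (4.99%, 4.62 to 5.38%), within 10 kb 2990 (23.9%, 23.1 to 24.6%), and beyond 100 kb 2814 (22.5%). Another H3K27me3 region was nearer than any region of these joint lists for 10176 members (81.2%). The same share over all autosomal H3K27me3 regions was not computed, so nothing is read from this count. The distance depends on the lists: to the nearest H3K4me3 or H3K27ac peak of any library at any FDR the median was 1926 bp, with members that such a peak touches counted as lying at no distance, and this is close to the median gap of 1732 bp to another H3K27me3 region. Members nearer to H3K4me3 than to H3K27ac numbered 5834 (46.6%), and those nearer to H3K27ac numbered 6691 (53.4%).

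**Figure D3:**
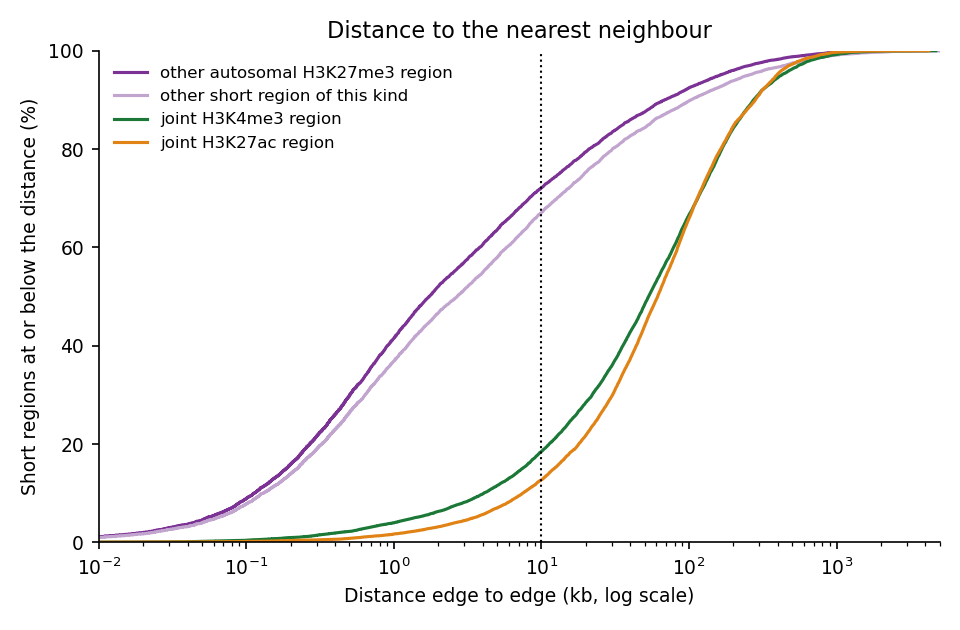
Cumulative share of the 12528 short regions (%) by the distance, edge to edge (kb, log scale), to the nearest other autosomal H3K27me3 region, other short region of the same kind, joint H3K4me3 region and joint H3K27ac region. At the dotted line of 10 kb the curves stand at 72.1, 67.0, 18.5 and 12.7%.

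The strength of the short regions changed little with this distance. Median tags per kb were 41.4 in list 1 and 41.5 in list 2 among the 624 members under 1 kb from an active-mark region, 38.0 and 37.6 among the 2688 between 5 and 20 kb, and 39.5 and 38.7 among the 2814 at 100 kb or more. Median lengths in these classes were 2454, 2132 and 2302 bp. The 3 farthest members were 2 neighbours on chromosome 4, starting at 456551 and 459522, and 1 on chromosome 16 starting at 53228749. They were 4215681, 4213731 and 2622301 bp from the nearest active-mark region. The first 2 were 182 bp apart and held 64 and 43 tags in list 1 and 128 and 78 in list 2, and the third held 50 and 97 tags, so list 2 was the higher in all 3. In the first 5 Mb of chromosome 4 the joint H3K4me3 list held 0 regions. Each of the 3 was touched by an H3K4me3 peak of replicate 1, and the last 2 also by one of replicate 2.

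The regions were without active marks only as far as the joint lists go. An H3K4me3 peak of replicate 1, at any FDR, touched 4037 members (32.2%, 31.4 to 33.1%), against 43.2% of all autosomal H3K27me3 regions. In replicate 2 it was 2585 members (20.6%, 19.9 to 21.3%), against 33.4%. Peaks of both replicates touched 2239 members (17.9%), and in 2224 of them the peaks overlapped each other. H3K27ac peaks touched 192 members in replicate 1 (1.53%, 1.33 to 1.76%), against 7.79% of all autosomal H3K27me3 regions, and 54 in replicate 2 (0.431%, 0.330 to 0.562%), against 4.91%. The rule removed the regions with joint H3K4me3 or H3K27ac, which lowers the members' share by construction in all 4 libraries, and nothing is read from these gaps. In all, 4477 members (35.7%) had a peak of some active-mark library, and 8051 (64.3%) had none. For peaks of both replicates or of any library, the share over all autosomal H3K27me3 regions was not computed. These counts are therefore not compared.

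Many of these H3K4me3 peaks met the FDR limit of the joint list in replicate 1 and not in replicate 2. Merging overlapping peaks with an FDR of at most 1% in both replicates gave the start and end of all 16098 regions of the joint H3K4me3 list. A limit of 10% gave 35265 of the 35266 joint H3K27ac regions, so these limits were read from the lists. The methods name stricter limits for both marks. In replicate 1 the H3K4me3 limit of 1% was met by a peak in 1871 members (14.9%), and in replicate 2 in 48 (0.383%), with 1 member in both. The joint list takes overlapping peaks within the limit in both replicates, and the rule removes its regions. Few members with both therefore follow by construction. The share of all autosomal H3K27me3 regions at this limit was not computed, so nothing is read from these counts. Of the 1871, 1462 also had a replicate 2 peak at some FDR. The peaks of replicate 1 in members had a median FDR of 1.29% and those of replicate 2 of 2.51%. The FDR sets each library against the input of 26.7 M tags, which is less deep than either.

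By their median tags these peaks lay between the joint-list peaks and the rest, and in replicate 2 they were close to the rest. The rule keeps members off the joint H3K4me3 list, so nearly all their peaks lie outside it by construction. Nothing is read from their difference to the joint-list peaks. In members, H3K4me3 peaks had a median of 185 tags in both replicates, with 27.6-fold enrichment in replicate 1 and 30.4-fold in replicate 2. Peaks in the joint H3K4me3 list had medians of 480 and 693 tags at 53.9-fold and 70.4-fold, and peaks outside the joint list and outside H3K27me3 had 142 and 176 tags at 22.7-fold and 28.2-fold. The peaks in members were 1317 and 1202 bp long in the median, shorter than the members, and 44.4 and 49.5% of them lay wholly inside a member.

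The members with the strongest H3K4me3 in the lower of both replicates were chosen after their values were seen. On chromosome 9 from 73571870 to 73574916, H3K27me3 held 87 and 112 tags in lists 1 and 2, and the H3K4me3 peak held 221 tags (66.5-fold, FDR 0.27%) in replicate 1 and 235 tags (68.8-fold, FDR 1.03%) in replicate 2. On chromosome 23 from 37911923 to 37914654, the H3K4me3 peak held 244 tags at 64.2-fold and 232 tags at 64.7-fold, with an FDR of 1.31% in replicate 2. In both regions the replicate 2 peak exceeded 1%, and the joint list takes neither.

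In bases, the 2 active marks differed. H3K4me3 peaks that touched no joint H3K4me3 region covered 16.1% of the members' bases in replicate 1 and 9.22% in replicate 2, against 1.60 and 1.95% of the autosomal bases outside that list. The ratios were 10.1 and 4.72. H3K27ac peaks that touched no joint H3K27ac region covered 0.844 and 0.235% of the members' bases, against 2.55 and 2.23% of the autosomal bases outside that list, which gives ratios of 0.331 and 0.105. Both replicates showed the same direction for each mark. In the long H3K27me3 regions without joint active marks, these H3K4me3 peaks covered 26.93% of the bases in replicate 1 and 12.99% in replicate 2. The H3K27ac peaks covered 0.8222 and 0.05349% there. Neither direction was therefore particular to the members. Members lie outside both joint active-mark lists, while the autosomal bases leave out only the list of the same mark, so the 2 sides of each ratio are not fully matched.

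**Figure D4:**
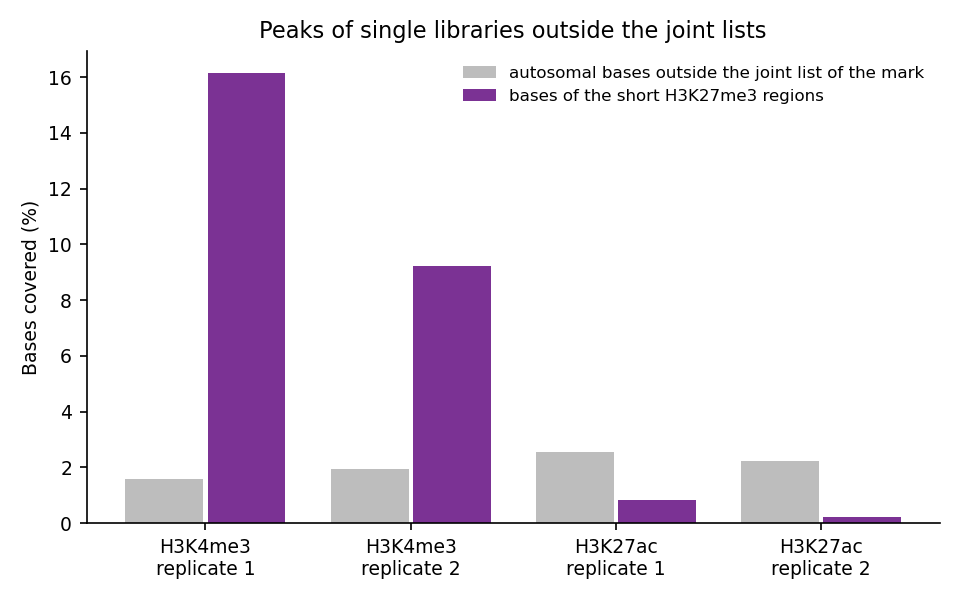
Share of bases (%) covered by peaks of each active-mark library outside the regions listed jointly for the same mark, for the autosomes outside that list (grey) and for the short H3K27me3 regions (purple). Bars start at 0. For H3K4me3 the purple bars stand at 16.1 and 9.22% and exceed the grey, and for H3K27ac they stand at 0.844 and 0.235% and fall below it.

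Members with H3K4me3 peaks had more H3K27me3. The 2239 with a peak in both replicates had a median length of 2826 bp, 46.5 and 46.4 tags per kb in lists 1 and 2, and 8.75-fold and 8.67-fold enrichment. The 8051 with no active-mark peak had 2047 bp, 36.5 and 36.1 tags per kb, and 6.56-fold and 6.48-fold enrichment. Within length classes from 1000 bp the order was the same. Among members of 2000 to under 4000 bp the medians were 47.4 and 47.5 tags per kb for 976 with a peak in both replicates, and 38.1 and 37.6 for 3275 with none. Median lengths there were 2860 and 2647 bp, so length was not fully matched. The share touched by replicate 1 rose from 20.3% of the members under 1000 bp to 60.1% of those of 6000 bp or more, and in replicate 2 from 13.3 to 41.5%. A longer region offers more bases to be touched. Near joint active-mark regions, under 1 kb away, 53.7 and 42.5% of the members were touched by H3K4me3 peaks, and at 100 kb or more 29.8 and 17.7%.

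H3K27ac peaks of both replicates touched 4 members, described here after their values were seen. On chromosome 1 from 96540955 to 96541862, a member of 907 bp lay inside H3K27ac peaks of 2498 tags (36.9-fold, FDR 16.8%) and 2069 tags (34.6-fold, FDR 41.5%). On chromosome 15 from 56368922 to 56371168, both H3K27ac peaks reached 41.8-fold and ended shortly after the member's start, at FDR values of 10.9 and 12.7%. On chromosome 16 from 39743767 to 39751187, the replicate 1 peak had an FDR of 16.5% and the replicate 2 peak 4.68%. In each of these 3 regions at least 1 peak exceeded the 10% of the joint H3K27ac list. On chromosome 8 from 87579147 to 87584562, the peaks had FDR values of 5.15 and 5.22% and did not overlap each other.

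The members were unevenly spread over the chromosomes. Over all autosomes there were 5.11 members per Mb, with the lowest values on chromosomes 8 and 6 (2.73 and 2.74) and the highest on chromosomes 11, 14 and 24 (13.1, 12.2 and 10.2). Chromosomes with more joint H3K4me3 regions per Mb had more members, with r = 0.905 and rho = 0.835 across the 26 autosomes, and r = 0.814 without chromosomes 11 and 14. For joint H3K27ac regions r was 0.360 and rho 0.293. These are descriptions over 26 chromosomes that share the same libraries. Median length per chromosome stayed between 2023 and 2424 bp, and median fold enrichment between 6.71 and 7.33 in list 1.

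On a finer scale the members were also unevenly spread. Of 2465 windows of 1 Mb, 774 (31.4%) held no member, and 418 (17%) held 10 or more and together 8033 members (64.1%). How all autosomal H3K27me3 regions spread over these windows was not computed. The densest windows were 29 to 30 Mb on chromosome 19 with 73 members, 56 to 57 Mb on chromosome 11 with 58, and 60 to 61 Mb on chromosome 17 with 55. The window on chromosome 19 also held 6 of the long H3K27me3 regions, 3 joint H3K4me3 regions and 14 joint H3K27ac regions. The window on chromosome 11 held 0 long regions and 4 of each active mark.

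The last 5 Mb of the chromosomes were the richest. They held 13.4 members per Mb, against 4.63 between the ends and 4.92 in the first 5 Mb, so 1747 members (13.9%) lay in these 130.0 Mb. The last 5 Mb were denser than the part between the ends on 24 of 26 chromosomes, and the exceptions were chromosomes 1 and 5, with 2.2 and 2.4 members per Mb there. Joint H3K4me3 regions also were denser there on 18 of 26 chromosomes, at 8.03 against 6.22 per Mb, a smaller ratio, and joint H3K27ac regions were not, at 12.3 against 14.6 per Mb. The first 5 Mb varied from 0 members per Mb on chromosomes 8 and 11 to 16.8 on chromosome 3, with a median of 3.40, and were denser than the part between the ends on 10 of 26 chromosomes. Members of the last 5 Mb were 2038 bp long in the median, against 2283 bp between the ends, with 7.69-fold and 7.28-fold enrichment against 6.94-fold and 6.80-fold.

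**Figure D5:**
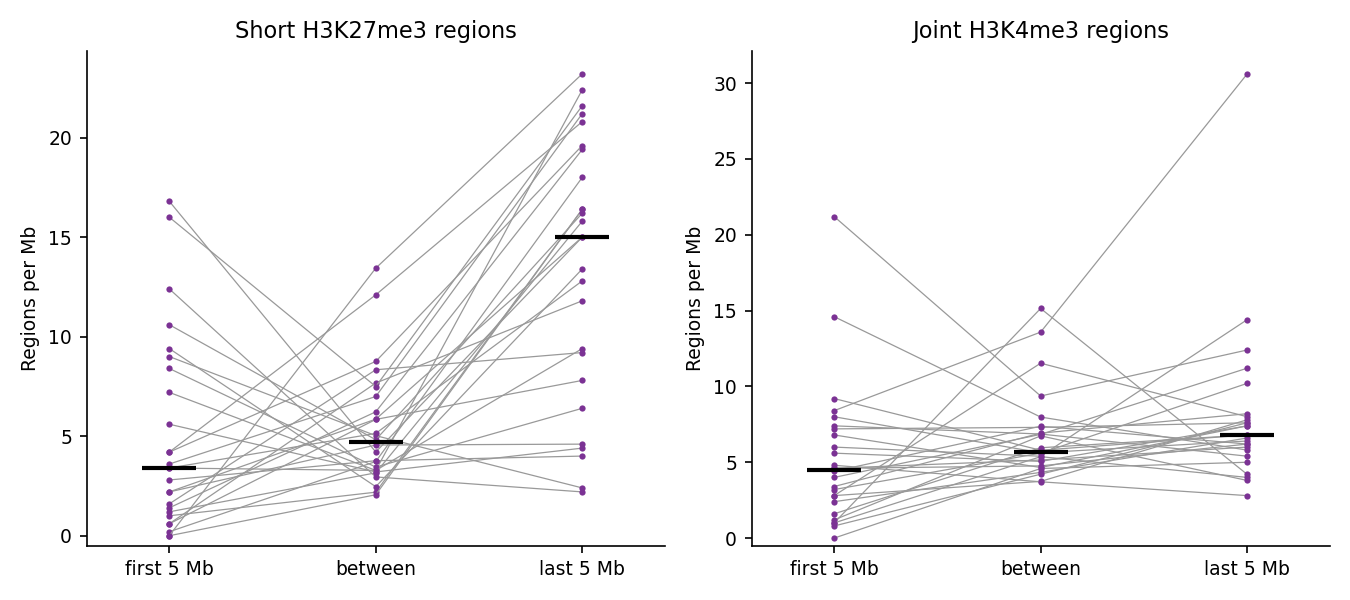
Regions per Mb in the first 5 Mb, the part between the ends and the last 5 Mb of each of the 26 autosomes (points, 1 line per chromosome, with black bars for the median), for the short H3K27me3 regions on the left and the joint H3K4me3 regions on the right. The median of the short regions is 3.40, 4.69 and 15 per Mb, and 24 of 26 lines rise from the middle to the last 5 Mb.

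Some short regions lay in the intervals that the sequencing of domestic and wild sheep marked as selection sweeps. Their share was near the share of the autosomes that these intervals cover. There were 129 members (1.03%, 0.867 to 1.22%) in 57 of 635 autosomal sweep regions, which cover 0.942% of the autosomes. The other 2902 autosomal H3K27me3 regions had 35 there (1.21%, 0.868 to 1.67%), joint H3K27ac regions 455 of 34899 (1.30%, 1.19 to 1.43%) and joint H3K4me3 regions 197 of 15350 (1.28%, 1.12 to 1.47%). These intervals count regions as independent, while several members can share 1 sweep region. The intervals are therefore not compared, and no difference was tested. Of the 57 sweep regions with a member, 36 held no joint H3K27ac region. The same share over all 635 sweep regions was not computed, so nothing is read from this count.

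The 24 sweep regions that the study singles out held 3 members, each in a region named for its closest gene. In the region named for PANK2, a kinase of coenzyme A synthesis, the member lay on chromosome 13 from 50474613 to 50476016, with 55 and 40 tags at 4.64-fold and 8.25-fold. In that of GLI2, a transcription factor of the Hedgehog pathway, it lay on chromosome 2 from 185035120 to 185037607. It held 95 and 34 tags at 5.1-fold and 5-fold, so the lists differed more in tags than in fold enrichment. By the distance that the study gives, GLI2 itself lies outside this sweep region. In that of TCHH, a structural protein of the hair follicle, it lay on chromosome 1 from 101008599 to 101010342, with 98 and 61 tags at 11.2-fold and 9.22-fold, 166 bp from a joint H3K4me3 region and touched by H3K4me3 peaks of both replicates. Chosen after the counts were seen, the region named for UNCX, a homeobox factor of the developing axial skeleton, held 13 members and 0 joint H3K27ac regions, and only a region on chromosome 21 with 20 members held more.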

How the data were processed

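The authors mapped reads to Oar_v3.1 and called peaks per library with MACS 1.4.2 against pooled input (p cutoff 1e-05). The deposited peak lists give position, the count of tags, a score on a log10 scale, fold enrichment over input as a ratio, and FDR in percent. The deposited joint lists hold positions. Merging overlapping peaks of both H3K27me3 lists gave the start and end of 12524 of the 12528 members. The per-library H3K27me3 lists have no sample record and were used as the authors' values without an n. Positions are 1-based. Overlap means at least 1 bp. Chromosome lengths are the last position in any list. Regions named are the 5 of highest lower fold, the 3 nearest to the limit on either side, the 3 farthest from active marks, the 3 longest runs, and those in the singled-out sweeps. Other regions and windows named were chosen after their values were seen. Members and lists were chosen with earlier results of these data known. The alternatives covered length, FDR, overlap, distance and single lists. Genes were not analysed here. The functions passed 7 of 7 checks on simulated data. The scripts ran under Python 3.11.15 with pandas 2.3.3 and numpy 2.4.6, and matplotlib 3.10.9 drew the plots.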

Additional observations from a re-analysis of the deposited data

How the results depend on the processing

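The count of 12528 short regions was most sensitive to what counts as found. It fell to 8051 without any active-mark peak of any library at any FDR and to 7061 with H3K27me3 peaks at an FDR of at most 1% in both lists. It was 12525 with the active marks of replicate 2 alone and 10557 with those of replicate 1 alone, and 20357 and 22410 with H3K27me3 list 2 or list 1 alone. Limits of 4000 and 12000 bp, or a margin of 1000 bp to active marks, kept it within 1.5 times (10533, 12808 and 11904). Under 4000 and 12000 bp the median length was 1993 and 2275 bp. With the strongest peak only, the medians of tags per kb were 37.9 and 37.2, and in list 2 the value was 38.0 for regions with 1 peak in each list. The median gap was 5221 bp between midpoints and 2684 bp to the nearest short region. The share near another H3K27me3 region was 63.6% at 5 kb and 81.5% at 25 kb. The median distance to active marks was 38726 bp between midpoints and 1926 bp to the nearest peak of any library at any FDR, where overlapping regions count as lying at no distance. Of 23 alternative values, 8 stayed within the interval or the limit set for their result, the 5 such counts above among them. No paired analysis was possible because no result comes from a test between samples, although the replicate numbers of both active marks stand for the same 2 fetuses. With 1 library behind each H3K27me3 list, the spread between animals is not known, and the median of 80 to 83 tags per region limits single values.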

Other observations

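On X, 13241 of 16512 joint H3K27me3 regions met the same limits of length and active marks. They had a median length of 2647 bp, medians of 40.6 and 37.7 tags per kb and 7.28-fold and 6.82-fold enrichment in lists 1 and 2, and a median gap of 346 bp to the nearest other H3K27me3 region.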
